A study of Mus musculus with 12 samples.

Results

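The dendritic cell identity genes described here are 8 mouse genes of the 35275 in the count tables: the growth factor receptor gene Flt3, the transcription factor genes Zbtb46 and Batf3, the integrin chain genes Itgax and Itgae, the lectin gene Cd209a, the actin-bundling protein gene Fscn1 and the peptidase gene Dpp4. They were found by symbol from their Ensembl identifiers, and were chosen from measured values of these same libraries, so that their levels and differences are given as a description without p-values, and the number of them past the threshold is given once, as a count beside the share of all genes. The 19 lists of other genes set beside them were also chosen with earlier results of these data known. Their p-values, counts and medians are therefore a description as well, and not independent tests. The cells were wildtype bone marrow cells of the mouse, grown into bone marrow derived macrophages (BMDMs) for 6 days with M-CSF, IL-4 and IL-10. Each culture also received DMSO, the solvent control, olaparib, an inhibitor of the PARP enzymes, or MNA (methyl-nicotinamide), a derivative of the vitamin nicotinamide, with 4 libraries numbered 1 to 4 in each of the 3 groups. All groups thus shared the 3 cytokines, and no culture without them was measured. Neither dendritic cells nor a sorted fraction of the cultures were sequenced.

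Dendritic cells are the professional antigen-presenting cells that carry antigen to lymph nodes and prime naive T cells. They arise in bone marrow from progenitors that depend on the receptor FLT3 and its ligand, and the conventional dendritic cells (cDC) among them fall into the cDC1 subset, which needs BATF3 and cross-presents antigen to CD8+ T cells, and the cDC2 subset, which is known for priming CD4+ T cells. ZBTB46 marks the committed cDC lineage, whereas CD11c, the product of Itgax, is carried by dendritic cells and by many macrophages, so that it alone does not separate these cell types. M-CSF, which was used here together with IL-4 and IL-10, favours macrophages.

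Each library was a set of raw read counts per gene with a total of 21146291 to 31446849. Levels are given as CPM, the counts of a gene per 1000000 counts of its library, with library totals scaled by edgeR's TMM factors. MNA replicate 2 stood apart from its group: over all tested genes its median absolute log2 difference from the DMSO mean was 0.0927, beside 0.0992 to 0.140 for the DMSO libraries themselves, against 0.342 to 0.357 for the other 3 MNA libraries and 0.240 to 0.279 for olaparib. Each DMSO library was compared with the mean of the other DMSO libraries only, so its value is not strictly comparable. MNA replicate 2 is shown apart below, and the members' values for MNA are given with and without it. Single calls for MNA against DMSO rested on few libraries: of the 44 genes named by rule and called there, 13 stayed called in all 12 fits that each left out 1 library, and 26, 31 and 31 were lost without MNA replicates 1, 3 and 4. Of 40 such genes for olaparib 25 stayed called. The labels name a donor mouse for no library.

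The promoters of Itgax, Zbtb46, Batf3 and Fscn1, the members with both a fitted difference and a RefSeq entry, are shown so that the letters of each window can be read beside the levels. Each line is 250 bases before and 50 bases after the RefSeq start on the coding strand, 5′ to 3′, in the GRCm38.p6 build. A match is in capitals. The Itgax window is chr7:128129300-128129599 on the plus strand, the Zbtb46 window chr2:181424339-181424638 on the minus strand, the Batf3 window chr1:191098164-191098463 on the plus strand and the Fscn1 window chr5:142960105-142960404 on the plus strand.
Itgax: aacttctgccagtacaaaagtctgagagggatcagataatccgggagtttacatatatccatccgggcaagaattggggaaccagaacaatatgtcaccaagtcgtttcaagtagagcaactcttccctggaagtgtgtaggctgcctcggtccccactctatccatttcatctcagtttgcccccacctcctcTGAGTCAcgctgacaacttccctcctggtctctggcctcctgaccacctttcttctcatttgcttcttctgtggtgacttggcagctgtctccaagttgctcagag
Zbtb46: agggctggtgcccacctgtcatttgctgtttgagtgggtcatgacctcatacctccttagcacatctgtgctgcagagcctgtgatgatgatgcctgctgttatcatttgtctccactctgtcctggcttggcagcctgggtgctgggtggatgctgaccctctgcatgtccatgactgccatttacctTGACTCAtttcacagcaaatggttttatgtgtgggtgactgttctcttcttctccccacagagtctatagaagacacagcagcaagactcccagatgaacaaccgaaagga
Batf3: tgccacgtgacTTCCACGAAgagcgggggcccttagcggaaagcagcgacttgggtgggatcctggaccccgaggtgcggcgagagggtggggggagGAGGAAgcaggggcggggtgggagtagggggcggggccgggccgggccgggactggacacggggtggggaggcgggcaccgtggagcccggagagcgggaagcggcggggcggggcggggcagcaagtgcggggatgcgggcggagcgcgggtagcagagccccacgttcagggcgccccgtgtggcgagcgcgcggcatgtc
Fscn1: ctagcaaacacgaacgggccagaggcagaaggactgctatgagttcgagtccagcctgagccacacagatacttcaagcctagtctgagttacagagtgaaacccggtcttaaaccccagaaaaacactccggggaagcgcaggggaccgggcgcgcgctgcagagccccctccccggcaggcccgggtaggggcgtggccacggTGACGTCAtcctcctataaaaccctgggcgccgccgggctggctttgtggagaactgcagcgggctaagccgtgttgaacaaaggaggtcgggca

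The motifs searched on both strands were a PU.1 core (GAGGAA), an AP-1 site (TGANTCA), an interferon-stimulated response element or ISRE (GAAANNGAA), a STAT-binding GAS element (TTCNNNGAA) and a cyclic AMP response element or CRE (TGACGTCA), of which the last was added after the Fscn1 sequence had been read. The Itgax window held an AP-1 match, TGAGTCA, 56 to 50 bases before the start. The Zbtb46 window held another, TGACTCA, 61 to 55 bases before a RefSeq start that lies 35038 bases from the 5′ end of the gene in the GENCODE annotation. The Batf3 window, with a GC content of 75.7%, held a GAS match and a PU.1 match and no AP-1 match. The Fscn1 window held the CRE, 45 to 38 bases before the start. Among 32851 promoter windows of the same length, 28.3% held the PU.1 core, 7.81% the AP-1 site, 8.56% the ISRE, 8.30% the GAS element and 1.79% the CRE. The windows of Flt3 and Cd209a held none of the 5 motifs, the Dpp4 window held a PU.1 and an ISRE match, and Itgae had no entry. These matches describe letters in a window and not binding.

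The 8 members covered a very wide range of levels. Per kilobase of exon, which allows levels to be compared between genes, Itgax stood at 344 ± 23.7 CPM per kb (SD, n = 4) in DMSO, Batf3 at 10.3 ± 1.56 and Zbtb46 at 1.93 ± 0.155. The DMSO means of Itgae, Fscn1, Cd209a, Dpp4 and Flt3 were all below 0.1 CPM per kb. Only Itgax, Batf3, Zbtb46, Fscn1 and Itgae passed edgeR's filter on low counts, and Fscn1 passed it through the treated groups, where it was higher. Flt3, Cd209a and Dpp4 did not, and for them counts are given.

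**Figure D1:**
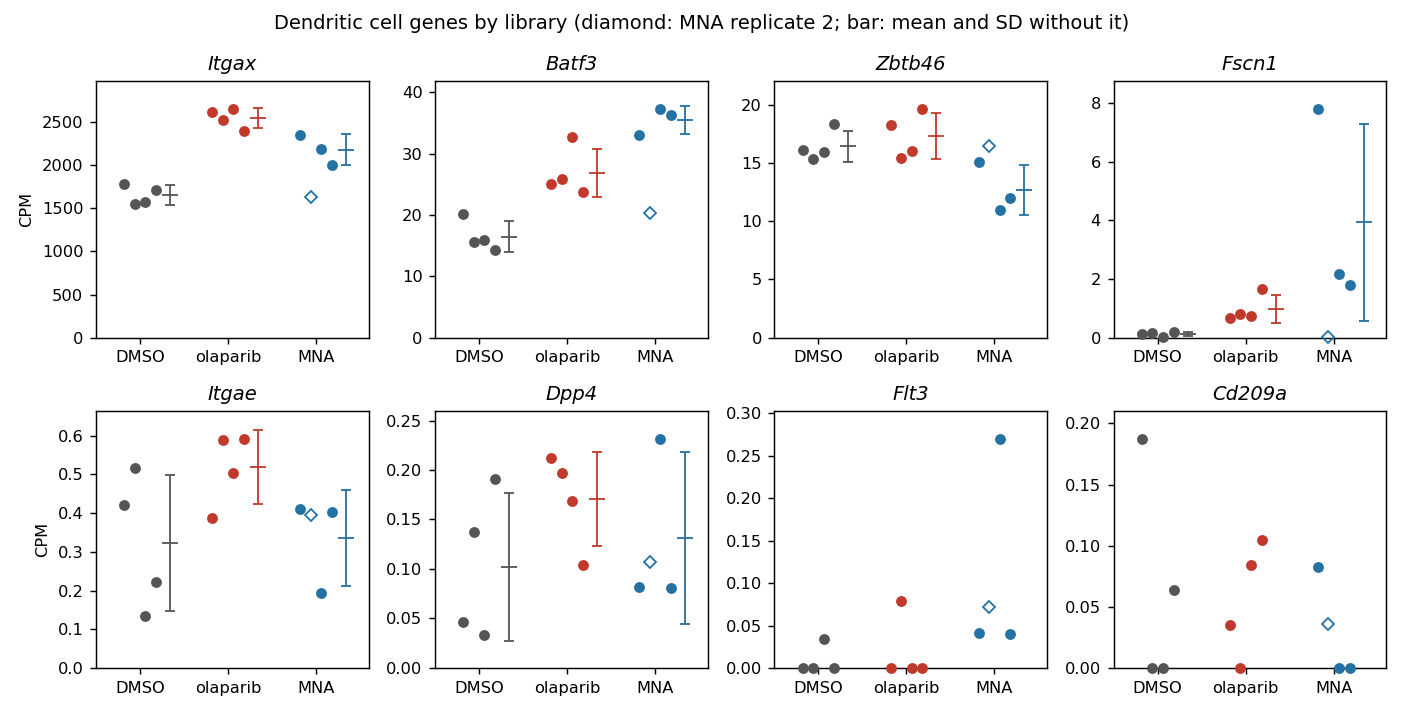
Level of each of the 8 members in every library, in CPM on a linear axis from 0, with one panel per gene and the libraries grouped as DMSO, olaparib and MNA; points are single libraries, the open diamond is MNA replicate 2, and bars are the mean and SD of a group without it (none for Flt3 and Cd209a). Itgax, Batf3 and Fscn1 lie higher in all olaparib libraries than in all DMSO libraries, whereas Flt3, Cd209a and Dpp4 lie at a few counts.

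Itgax (ENSMUSG00000030789, chr7:128129547-128150657, plus strand) encodes the integrin chain αX, which pairs with β2 to form CD11c/CD18. Its level was 1782, 1547, 1570 and 1715 CPM in the DMSO libraries 1 to 4. In olaparib-treated macrophages it was 2618, 2516, 2654 and 2391 CPM. In MNA-treated macrophages it was 2349, 2188 and 1998 CPM in replicates 1, 3 and 4, and 1635 CPM in replicate 2. All olaparib libraries thus lay above all DMSO and all MNA libraries, and 3 of the 4 MNA libraries lay above DMSO while replicate 2 lay among the DMSO libraries. The fitted difference from DMSO was 1.54-fold for olaparib (log2 0.62 ± 0.11 SE) and 1.24-fold for MNA (log2 0.30 ± 0.11), or 1.32-fold for MNA without replicate 2 (log2 0.40 ± 0.07). The order of the group means was olaparib, MNA without replicate 2 and DMSO, and no neighbours in it overlapped. The share of all genes whose groups do not overlap is not given here. Such separation is therefore not read as particular to Itgax or to the genes below. Of the 31-base words of the Itgax transcripts, 10.7% also occur in Itgad, so that some reads cannot be assigned to one of the pair.

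The partner chain of CD11c moved in the same direction. Itgb2, which encodes the β2 chain shared by CD11a, CD11b, CD11c and CD11d, rose from 2300 ± 122 CPM (SD, n = 4) in DMSO to 3676 ± 156 with olaparib (log2 0.68 ± 0.18 SE, edgeR adjusted p = 0.017). With MNA it reached 4604 ± 103 CPM in replicates 1, 3 and 4 while replicate 2 stood at 2322 CPM (log2 0.81 ± 0.18, adjusted p = 0.0154 with all 12 libraries, and 0.999 ± 0.06, adjusted p = 1.51e-08, without replicate 2). The list of integrin chains held 6 genes other than the members, and 5 of them rose and none fell with olaparib by edgeR's test and by DESeq2, where 14.3% of all tested genes were called higher. All 6 passed at an unadjusted p under 0.05. The sixth, Itgb7, is described with Itgae, and with the replicate number as a block it was called lower. Itgam, the CD11b chain of myeloid cells, rose with olaparib by log2 1.74 ± 0.22 (adjusted p = 0.000353), Itgal, the CD11a chain, by 2.14 ± 0.29 (adjusted p = 0.000565), Itgad, the CD11d chain, by 0.72 ± 0.15 (adjusted p = 0.00551) and Itga4, the α4 chain that pairs with β1 or β7, by 0.55 ± 0.15 (adjusted p = 0.0192). Of the Itgam words, 68.1% are shared with the predicted gene Gm49368, which makes its level uncertain. With MNA 2 of the 6 rose, Itgb2 and Itgal (DESeq2 called 3), where 16.3% of all tested genes were called higher. At an unadjusted p under 0.05, 5 of the 6 passed for MNA. Without replicate 2 the count for MNA was 5 higher and 1 lower, beside 27.2% and 26.9% of all tested genes. The median log2 difference of the 6 was 0.70 for olaparib and 0.46 for MNA, against 0.00 over all tested genes in both comparisons.

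**Figure D2:**
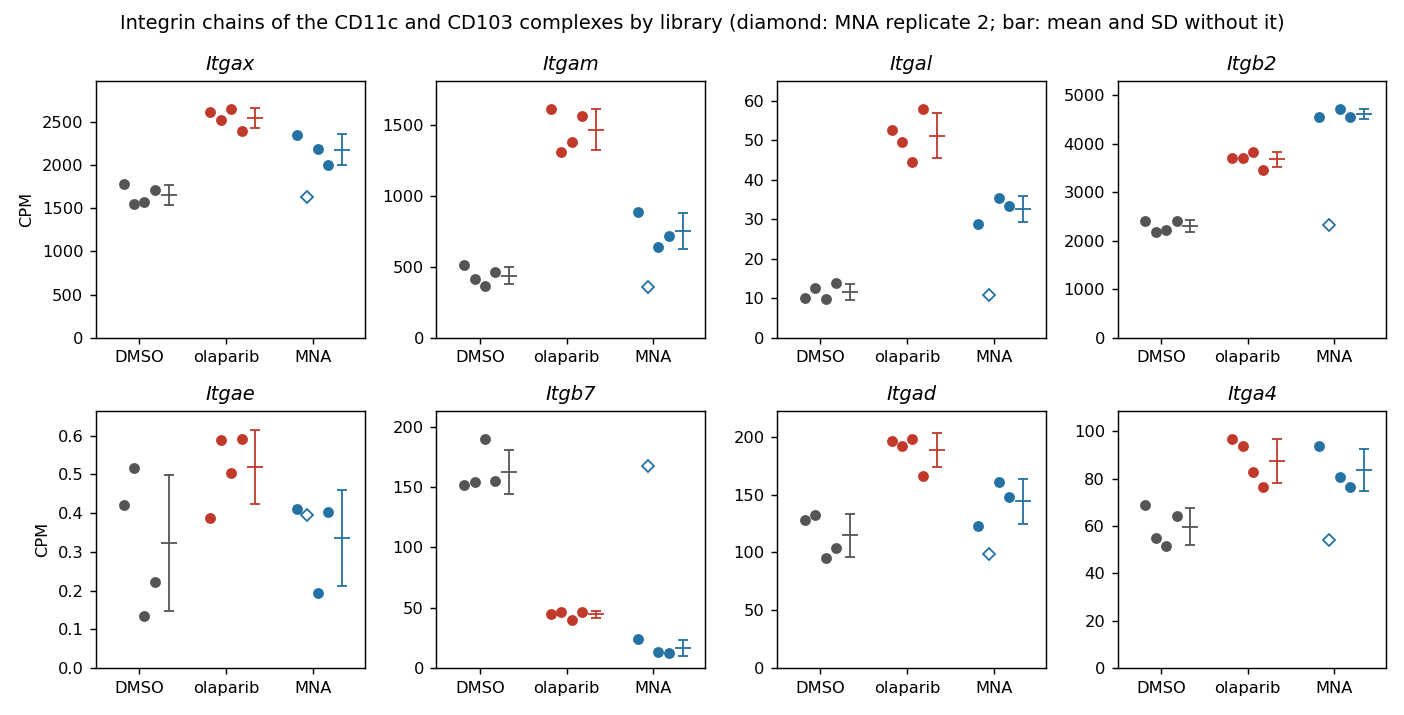
Level of the integrin chain genes in every library, in CPM on linear axes from 0, by group, with MNA replicate 2 as an open diamond and bars for the mean and SD of each group without it. Itgax and its partner chain Itgb2 lie higher in every olaparib library than in every DMSO library, whereas Itgb7, the partner chain of Itgae, lies at 151.7 CPM or more in DMSO and at 46.6 CPM or less with olaparib.

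Itgae (ENSMUSG00000005947, chr11:73090583-73147446, plus strand) encodes CD103, the αE chain of cDC1 and of tissue-resident T cells, which pairs with β7 and binds E-cadherin. It gave 9, 15, 4 and 7 counts in DMSO, 11, 15, 12 and 17 with olaparib and 10, 11, 5 and 10 with MNA (replicates 1 to 4). The group means were 0.324, 0.519 and 0.350 CPM, or 0.336 CPM for MNA without replicate 2, and the 3 groups overlapped. The fitted log2 differences from DMSO were 0.70 ± 0.40 (SE) for olaparib, 0.13 ± 0.42 for MNA and 0.07 ± 0.48 for MNA without replicate 2, so that at these counts no difference between the groups was detectable beyond the spread. The gene overlaps Haspin on the opposite strand over 2810 bases, and the strand setting of the counting is not given in the sources used here.

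The partner chain of CD103 had the opposite course to that of CD11c. Itgb7 stood at 163 ± 18.2 CPM (SD, n = 4) in DMSO and at 44.3 ± 3.27 with olaparib, and no libraries of these groups overlapped. With MNA it was 24.2, 13.4 and 12.5 CPM in replicates 1, 3 and 4, and 167 CPM in replicate 2. With all 12 libraries the differences missed the threshold (olaparib log2 -1.88 ± 0.68 SE, edgeR adjusted p = 0.0575, and MNA -1.58 ± 0.67, adjusted p = 0.0890). With the replicate number as a block they passed it (adjusted p = 0.0404 and 0.0292). Without MNA replicate 2 both passed, with log2 -1.88 ± 0.15 (adjusted p = 8.33e-07) for olaparib and -3.29 ± 0.19 (adjusted p = 1.26e-08) for MNA, and the level was then higher with olaparib than with MNA (log2 1.41 ± 0.18, adjusted p = 2.95e-05).

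Batf3 (ENSMUSG00000026630, chr1:191097847-191108945, plus strand) encodes the basic leucine zipper factor that cDC1 require, and which acts as a partner of JUN together with IRF4 or IRF8. Its level was 20.1, 15.7, 15.9 and 14.4 CPM in DMSO, 25.1, 25.9, 32.6 and 23.7 CPM with olaparib, and 33.0, 37.4 and 36.3 CPM in MNA replicates 1, 3 and 4. MNA replicate 2 stood at 20.3 CPM, just above the highest DMSO library. All olaparib libraries lay above all DMSO libraries, and the MNA libraries other than replicate 2 lay above all olaparib libraries. The fitted difference from DMSO was 1.63-fold for olaparib (log2 0.70 ± 0.18 SE), 1.93-fold for MNA (log2 0.95 ± 0.18) and 2.16-fold for MNA without replicate 2 (log2 1.11 ± 0.12). The order of the levels, MNA without replicate 2, olaparib and DMSO, had no overlap between neighbours, and differed from that of Itgax.

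The genes of the factors that act with BATF3 gave these values. Irf8, needed for cDC1 and monocyte development, stood at 112, 162 and 152 CPM in MNA replicates 1, 3 and 4 against 83.5 to 113 CPM in DMSO (log2 0.43 ± 0.16 SE, edgeR adjusted p = 0.0599, with all libraries, and 0.56 ± 0.13, adjusted p = 0.00208, without replicate 2). With the replicate number as a block its adjusted p was 0.0312. With olaparib its value was log2 -0.16 ± 0.16 (adjusted p = 0.466). Irf4, which cDC2 and IL-4-exposed macrophages use, was at log2 0.07 ± 0.13 with olaparib (adjusted p = 0.730) and -0.32 ± 0.14 with MNA (adjusted p = 0.0891). Among 13 further BATF, JUN, FOS, ATF and MAF family genes, olaparib gave none higher and 3 lower, where 12.8% of all tested genes were called lower. MNA gave 1 higher and 7 lower, where 16.3% of all tested genes were called higher and 12.3% lower. Jun itself, an AP-1 subunit with which BATF3 forms a dimer, fell by 0.78 ± 0.19 with olaparib (log2, adjusted p = 0.0125) and by 0.74 ± 0.19 with MNA (adjusted p = 0.0219). Atf3, a stress-induced repressor, fell with olaparib (log2 -0.37 ± 0.09, adjusted p = 0.012). Batf2, the paralogue that can stand in for BATF3, rose with MNA (log2 1.04 ± 0.26, adjusted p = 0.019), and the value for olaparib was 0.31 ± 0.26 (adjusted p = 0.377). The median over the 13 was log2 -0.25 for olaparib and -0.37 for MNA, against 0.00 over all tested genes. With olaparib 6 of the 13 passed at an unadjusted p under 0.05, and DESeq2 called 0 higher and 4 lower. Without MNA replicate 2 edgeR called 1 higher and 8 lower for olaparib, beside 22.5% and 21.2% of all tested genes.

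Zbtb46 (ENSMUSG00000027583, chr2:181387762-181459426, minus strand) encodes a zinc finger factor that is largely confined to conventional dendritic cells and their committed precursors among immune cells. Its level was 16.1, 15.3, 16.0 and 18.4 CPM in DMSO and 18.3, 15.4, 16.0 and 19.7 CPM with olaparib. In MNA-treated macrophages it was 15.05, 11 and 11.98 CPM in replicates 1, 3 and 4, and 16.4 CPM in replicate 2. The olaparib and DMSO libraries overlapped throughout, whereas the MNA libraries other than replicate 2 lay below every DMSO library. The fitted log2 difference from DMSO was 0.08 ± 0.13 (SE) for olaparib, -0.27 ± 0.13 for MNA and -0.38 ± 0.12 for MNA without replicate 2, which is a 1.30-fold lower level. In the fit with all 12 libraries it was the only one of the 5 members past the filter with an MNA value below DMSO.

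Of 20 further transcription factors of the dendritic cell lineage, 1 rose and 1 fell with olaparib, and none rose and 6 fell with MNA by edgeR's test, where 16.3% of all tested genes were called higher and 12.3% lower. At an unadjusted p under 0.05, 11 of the 20 passed for MNA, DESeq2 called 2 higher and 6 lower, and with the replicate number as a block edgeR called 2 higher, Irf8 among them, and 5 lower. Without MNA replicate 2 the counts for MNA became 5 higher and 9 lower, against 27.2% and 26.9% of all tested genes, and those for olaparib 1 higher and 5 lower, against 22.5% and 21.2%. Runx3, a factor used by cDC2 and Langerhans cells, rose with olaparib from 15.8 to 28.8 CPM (log2 0.87 ± 0.17 SE, adjusted p = 0.00464). Nfil3, which is needed early in cDC1 development, fell with olaparib (log2 -0.26, adjusted p = 0.0335). Id2, which is needed for cDC1, fell with MNA (log2 -0.95 ± 0.24, adjusted p = 0.0202), with 145, 103 and 110 CPM in replicates 1, 3 and 4 against 271 to 345 CPM in DMSO, and stood at log2 0.02 ± 0.24 with olaparib (adjusted p = 0.958). Klf4, a factor of monocytes and of a cDC2 subset, fell with MNA (log2 -1.33 ± 0.33, adjusted p = 0.0192). Zeb2, used by cDC2 and plasmacytoid dendritic cells, also fell with MNA (log2 -0.53 ± 0.14, adjusted p = 0.0241). Both Klf4 and Zeb2 were also lower in every olaparib library than in every DMSO library. Klf4 stood at 75.4 to 92.55 CPM against 132 to 146 CPM, and Zeb2 at 434 to 526 CPM against 602 to 719 CPM. Neither was called for olaparib with all 12 libraries.

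Fscn1 (ENSMUSG00000029581, chr5:142960343-142973185, plus strand) encodes fascin, the actin-bundling protein of the long processes of mature dendritic cells. It gave 3, 5, 1 and 6 counts in DMSO, 19, 21, 18 and 48 counts with olaparib, and 190, 1, 56 and 45 counts with MNA in replicates 1 to 4. In CPM the DMSO libraries ranged from 0.0335 to 0.190, the olaparib libraries from 0.671 to 1.67, and MNA replicates 1, 3 and 4 were at 7.81, 2.16 and 1.81 while replicate 2 was at 0.0358. All olaparib libraries lay above all DMSO libraries, and the MNA libraries other than replicate 2 lay above all olaparib libraries, although MNA replicate 1 exceeded the next MNA library by more than the rest of the group spanned. The fitted log2 difference from DMSO was 2.84 ± 1.07 (SE) for olaparib and 4.41 ± 1.04 for MNA, and without MNA replicate 2 it was 2.84 ± 0.67 and 4.82 ± 0.63. Without MNA replicate 1 the value for MNA was 3.26, and that of olaparib against MNA changed from -1.57 to -0.43. Even so, the highest library held 2.59 CPM per kb, under the lowest Itgax library at 322. Since these were whole cultures, a change in the number of cells with fascin and a change in the amount per cell cannot be told apart, here or for the other genes.

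Genes of dendritic cell maturation other than Fscn1 numbered 24, of which 23 were tested. With olaparib 6 rose and 1 fell, where 14.3% of all tested genes were called higher and 12.8% lower, and without MNA replicate 2 the counts were 9 and 3 against 22.5% and 21.2%. With MNA, where all genes gave 16.3% and 12.3%, 9 rose and none fell by edgeR's test, whereas 15 passed at an unadjusted p under 0.05, DESeq2 called 11 higher and 3 lower, the replicate block gave 10 higher and 2 lower, and edgeR without replicate 2 called 11 higher and 6 lower against 27.2% and 26.9% of all genes. Ccr7, the chemokine receptor that guides mature dendritic cells to lymph nodes, stood at 0.234, 0.275, 0.0335 and 0.381 CPM in DMSO and at 0.706, 1.49, 1.60 and 2.02 CPM with olaparib (log2 2.62 ± 0.84 SE, edgeR adjusted p = 0.0362, a call lost in 7 of the 12 fits that each left out 1 library). With MNA it was 10.6, 5.60 and 5.59 CPM in replicates 1, 3 and 4 and 0.430 CPM in replicate 2 (log2 4.55 ± 0.82, adjusted p = 0.0142, kept in all 12 such fits). Like Fscn1, it was thus highest in MNA replicate 1 and lowest in DMSO replicate 3. Naive T cells carry CCR7 as well.

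Maturation genes that rose with MNA included Il15, a cytokine presented to CD8+ T and NK cells, from 4.69 to 15.2 CPM without replicate 2 (log2 1.45 ± 0.25 SE with all libraries, edgeR adjusted p = 0.0142). Il4i1, an amino acid oxidase, rose by log2 1.91 ± 0.41 (adjusted p = 0.0144). Cacnb3, a calcium channel subunit found in migratory dendritic cells, rose by 3.59 ± 0.80 (adjusted p = 0.0156). Cd83, the classical surface marker of mature dendritic cells, rose by 1.33 ± 0.29 (adjusted p = 0.015) and stood at log2 0.14 ± 0.29 with olaparib (adjusted p = 0.739). The difference between the agents was itself past the threshold for Cd83 (log2 -1.19 ± 0.29, olaparib against MNA, adjusted p = 0.013) and for Il15 (-1.15 ± 0.25, adjusted p = 0.00676). The T cell costimulatory ligand genes diverged from each other. Cd80 rose with olaparib (log2 0.70 ± 0.17, adjusted p = 0.0121) and was lower with MNA than with olaparib (log2 1.198 ± 0.18 for olaparib against MNA, adjusted p = 0.00071), Tnfsf4, the OX40 ligand, rose with olaparib (2.51 ± 0.38, adjusted p = 0.00113), and Cd40, the receptor for T cell help, fell with olaparib (-0.81 ± 0.19, adjusted p = 0.0107). Cd86 rose with MNA (1.15 ± 0.34, adjusted p = 0.0289). Other genes of the list were lower in MNA replicates 1, 3 and 4. Cd200 stood at 74.2 to 137 CPM in DMSO and at 19.1, 29.4 and 16.2 CPM in these replicates, with 131 CPM in replicate 2. Cd40 stood at 8.29 to 10.4 CPM in DMSO and at 5.92, 5.79 and 4.75 CPM in these replicates, with 8.49 CPM in replicate 2. The chemokine gene Ccl17, which is induced by IL-4, rose with olaparib (1.51 ± 0.41, adjusted p = 0.0181). The median of the 23 was log2 0.30 for olaparib and 0.14 for MNA, against 0.00 over all tested genes.

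**Figure D3:**
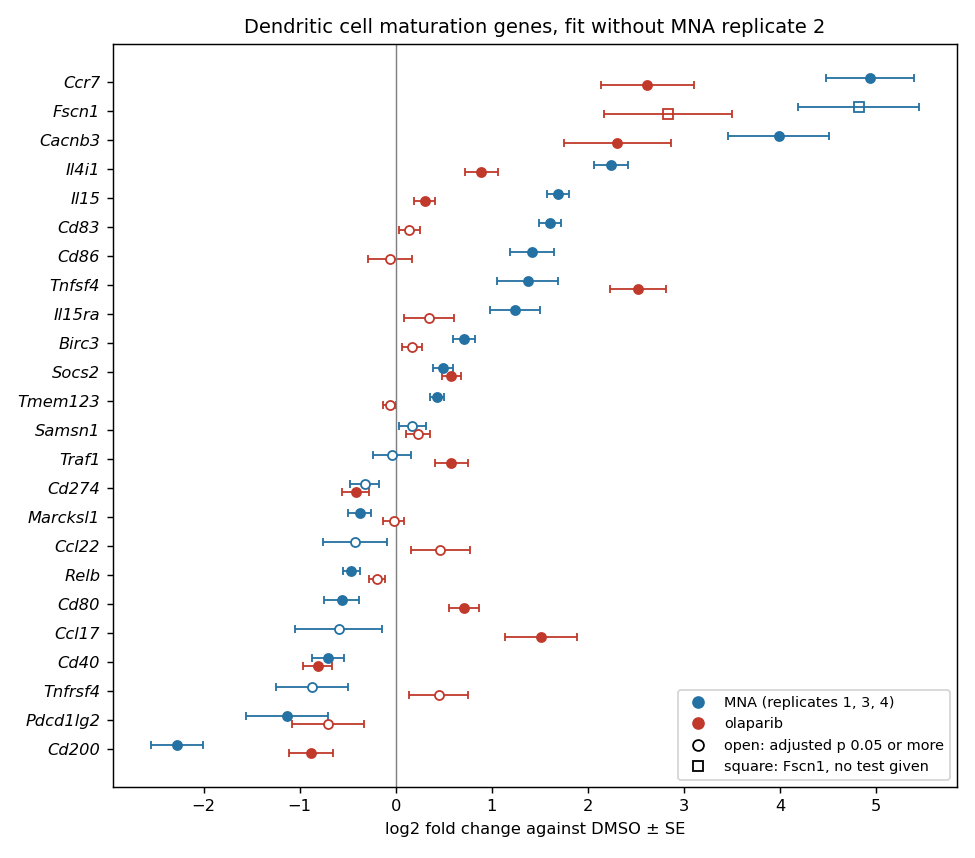
Log2 difference from DMSO for the tested genes of the maturation list, for olaparib and for MNA without replicate 2, with standard errors; filled points passed the threshold, and Fscn1 is an open square that carries no test. Ccr7, Fscn1 and Cacnb3 lie farthest above 0 with MNA, and Cd40 and Cd200 lie below 0 with both agents.

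Flt3 (ENSMUSG00000042817, chr5:147330741-147400489, minus strand) encodes the receptor for FLT3 ligand on which dendritic cell progenitors depend. It gave 1 count in the 4 DMSO libraries together, 2 counts in the 4 olaparib libraries and 11 counts in the 4 MNA libraries, of which 7 were in replicate 3. As CPM of the summed counts, over the unscaled totals, this was 0.00892 (exact 95% Poisson interval 0.000226 to 0.0497) for DMSO, 0.0187 (0.00226 to 0.0674) for olaparib and 0.108 (0.0538 to 0.193) for MNA, or 0.121 (0.0552 to 0.229) for MNA without replicate 2, and these intervals cover counting error only. Every library except MNA replicate 3 was under 3 counts. A library floor of 3 counts was worth 0.0954 to 0.142 CPM, so that Flt3 was not detectable above that level in 11 of 12 libraries. The gene overlaps the antisense gene Gm26597 over 936 bases.

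Among 9 tested receptor genes of the same lineage, 1 rose and 2 fell with olaparib, where 14.3% of all tested genes were called higher and 12.8% lower. With MNA 5 rose and none fell (7 at an unadjusted p under 0.05, and 5 higher and 1 lower by DESeq2), where 16.3% and 12.3% of all genes were called. Leaving out MNA replicate 2, the counts over 10 tested genes were 4 higher and 2 lower with olaparib, against 22.5% and 21.2%, and 6 higher and 2 lower with MNA, against 27.2% and 26.9%. Csf1r, the receptor for M-CSF on which macrophages depend, stood at 518 CPM in DMSO and 1735 CPM in MNA replicates 1, 3 and 4 (log2 1.45 ± 0.32 SE with all libraries, edgeR adjusted p = 0.0153). With olaparib it stood at 820.4 CPM (log2 0.66 ± 0.31, adjusted p = 0.131, and 0.66 ± 0.10, adjusted p = 0.000139, without MNA replicate 2). Csf2rb, the common β chain for GM-CSF, IL-3 and IL-5, rose with MNA (log2 0.67 ± 0.16, adjusted p = 0.0176) and Il13ra1, which with IL4RA forms the type II IL-4 receptor, by 1.82 ± 0.31 (adjusted p = 0.0142). Csf2rb2, the mouse paralogue that binds only IL-3, fell with olaparib (-0.49 ± 0.09, adjusted p = 0.00308). Csf2rb and Csf2rb2 share 19.6% and 30.1% of their words with other genes, mostly with each other, so that both levels are uncertain.

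Cd209a (ENSMUSG00000031494, chr8:3743397-3748984, minus strand) encodes a mouse homologue of DC-SIGN, a lectin that marks dendritic cells derived from monocytes. It gave 4, 0, 0 and 2 counts in DMSO, 1, 0, 2 and 3 with olaparib and 2, 1, 0 and 0 with MNA. Summed over each group this was 0.0536 CPM (95% interval 0.0197 to 0.117) in DMSO, 0.0560 (0.0206 to 0.122) with olaparib and 0.0294 (0.00606 to 0.0859) with MNA, or 0.0268 (0.00325 to 0.0969) without MNA replicate 2. The groups overlapped, and the gene was at or near the floor throughout. None of the 6 other genes of the Cd209 family was tested. Cd209b and Cd209f had no count in any library, and Cd209e held the most, with 18, 21 and 8 counts summed over DMSO, olaparib and MNA.

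Dpp4 (ENSMUSG00000035000, chr2:62330073-62412231, minus strand) encodes CD26, a surface dipeptidyl peptidase. It gave 1, 4, 1 and 6 counts in DMSO, 6, 5, 4 and 3 with olaparib and 2, 3, 6 and 2 with MNA. The summed level was 0.107 CPM (95% interval 0.0553 to 0.187) in DMSO, 0.168 (0.0996 to 0.266) with olaparib and 0.127 (0.0678 to 0.218) with MNA, or 0.134 (0.0643 to 0.247) without MNA replicate 2. These intervals overlapped, but they cover counting error only, and a difference between the groups was not tested. The antisense gene Gm13561 lies over 55161 bases of it.

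The intracellular peptidases of the same family were far more abundant. Of 5 tested genes 2 fell with olaparib, where 12.8% of all tested genes were called lower, namely Prep, the cytosolic prolyl endopeptidase (log2 -0.51 ± 0.08 SE, edgeR adjusted p = 0.00175), and Dpp9, an inhibitor of the NLRP1 and CARD8 inflammasome sensors (log2 -0.30 ± 0.06, adjusted p = 0.00711). With MNA 0 of 5 were called by edgeR, 2 passed at an unadjusted p under 0.05 and DESeq2 called 2 higher. With MNA replicate 2 left out edgeR called 2 higher, Dpp3 and Dpp7, and 1 lower, Prep, where 27.2% and 26.9% of all genes were called. Dpp3, Dpp7 and Dpp8 were at log2 0.21, 0.25 and 0.07 with MNA. Dpp6, which is known mainly as a potassium channel subunit of neurons, gave 20 counts summed over the olaparib libraries, 2 over DMSO and none over MNA.

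Over the 5 members that passed the filter, 2 were called higher with olaparib (3 without MNA replicate 2 and by DESeq2), beside 14.3% of all tested genes, and 3 were called higher with MNA, beside 16.3%. Without MNA replicate 2 there were 3 higher and 1 lower with MNA, beside 27.2% and 26.9%. Between olaparib and MNA edgeR called 0 of the 5, 2 passed at an unadjusted p under 0.05, and DESeq2 called 1 higher with olaparib, as did the fit with the replicate number as a block. All genes gave 10.9% higher and 10.9% lower in that comparison. Without MNA replicate 2 there were 2 higher and 2 lower, beside 21.5% and 20.7%. Because measured values of these comparisons were used in choosing the members, nothing is read from these counts. Both comparisons with DMSO use the same 4 control libraries.

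**Figure D4:**
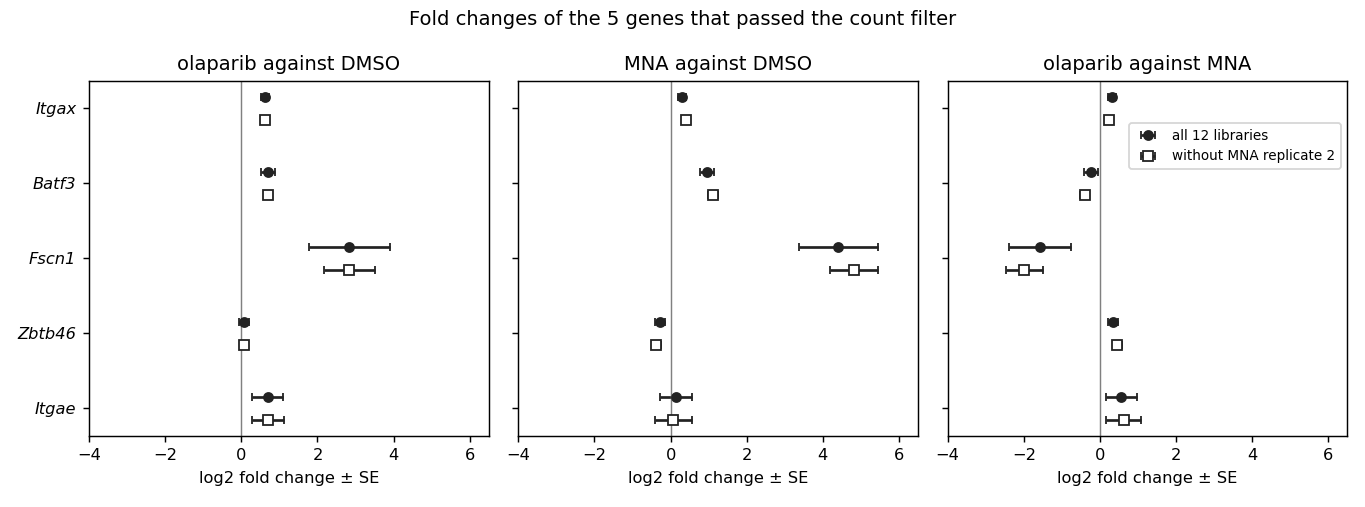
Log2 differences with standard errors for the 5 members that passed the filter on low counts, in the 3 comparisons, with all 12 libraries (filled circles) and without MNA replicate 2 (open squares). Zbtb46 lies near 0 with olaparib and below 0 with MNA, whereas Itgax, Batf3 and Fscn1 lie above 0 with both agents.

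Markers of the dendritic cell subsets other than the members were partly expressed. Of 8 tested cDC1 markers 3 rose and 1 fell with olaparib, where 14.3% of all tested genes were called higher and 12.8% lower, and with the replicate number as a block 2 rose and 1 fell, Tlr3 being lost (adjusted p = 0.0685). With MNA 4 rose and none fell by edgeR and by DESeq2 (4 at an unadjusted p under 0.05 by edgeR), where 16.3% and 12.3% of all genes were called. Without replicate 2 this became 4 and 1, against 27.2% and 26.9%. Naaa, a lysosomal acid amidase, rose with olaparib from 46.9 to 90.0 CPM (log2 0.94 ± 0.11 SE, edgeR adjusted p = 0.000166) and stood at log2 -0.16 ± 0.11 with MNA (adjusted p = 0.243). Cadm1, an adhesion protein also found outside cDC1, rose with MNA (0.36 ± 0.11, adjusted p = 0.0312) and was lower with olaparib than with MNA (-0.50 ± 0.11, adjusted p = 0.00737). Xcr1, the chemokine receptor that defines cDC1, was at 1.22 to 2.19 CPM in DMSO and fell with olaparib (-1.19 ± 0.38, adjusted p = 0.0353, a call lost in 7 of the 12 fits that each left out 1 library). It was at 0.505 to 0.982 CPM with olaparib and at 0.576, 0.926 and 0.804 CPM in MNA replicates 1, 3 and 4. In MNA replicate 2 it was at 2.11 CPM. Clec9a, a receptor for dead cells that defines cDC1, did not pass the filter, with 4, 19 and 19 counts summed over DMSO, olaparib and MNA. Siglech and Ly6d, which mark plasmacytoid dendritic cells, had no count in DMSO, and gave 0 and 1 counts with olaparib and 12 and 15 with MNA. Of the 8 tested plasmacytoid markers 3 were called higher with olaparib and 3 higher and 2 lower with MNA, beside 14.3% higher, and 16.3% higher and 12.3% lower, of all tested genes. When MNA replicate 2 was left out there were 3 higher and 2 lower with olaparib, beside 22.5% and 21.2%, and 5 higher and 3 lower with MNA, beside 27.2% and 26.9%. Cox6a2, a subunit of the respiratory chain in muscle and plasmacytoid dendritic cells, stood at 17.1 to 19.8 CPM in DMSO, 5.17 to 6.92 CPM with olaparib, 0.247 to 0.695 CPM in MNA replicates 1, 3 and 4 and 21.2 CPM in replicate 2. Its adjusted p was 0.224 for olaparib and 0.186 for MNA with all libraries, and 1.74e-06 and 1.10e-09 without replicate 2. Bst2, an interferon-induced gene of many cell types, was the first by p with olaparib (log2 0.88 ± 0.14, adjusted p = 0.00148).

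In the list of cDC2 and monocyte-derived dendritic cell markers 2 of 10 tested genes rose with olaparib, beside 14.3% of all genes. With MNA 3 rose, beside 16.3%. None fell by edgeR or DESeq2, and 3 passed at an unadjusted p under 0.05 in each comparison. When MNA replicate 2 was left out, 3 were called higher and 1 lower in each comparison. All genes then gave 22.5% higher and 21.2% lower for olaparib, and 27.2% and 26.9% for MNA. Clec10a of this list was at 22.3 to 42.7 CPM in DMSO and 13.9 to 22.9 CPM with olaparib. It was at 6.88 to 14.5 CPM in MNA replicates 1, 3 and 4, and at 38.3 CPM in replicate 2. Clec4a2, an inhibitory lectin, rose with olaparib (log2 0.65 ± 0.14 SE, edgeR adjusted p = 0.00678). Ccr2, the receptor that brings monocytes out of the marrow, stood at 0.127 to 0.328 CPM in DMSO and 1.18 to 2.30 CPM with olaparib (2.82 ± 0.83, adjusted p = 0.0264, lost in 4 of the 12 fits without 1 library), and at 5.22, 0.926 and 1.21 CPM in MNA replicates 1, 3 and 4. Tmem176b, an ion channel of the cDC2 lineage, rose with MNA (2.91 ± 0.64, adjusted p = 0.0154) and was lower with olaparib than with MNA (-2.85 ± 0.64, adjusted p = 0.00895). Of 13 tested genes of a core cDC signature 5 rose and 1 fell with each agent, beside 14.3% higher and 12.8% lower of all genes for olaparib and 16.3% and 12.3% for MNA. Over the 14 genes tested without MNA replicate 2, 6 were higher and 2 lower with olaparib and 5 higher and 1 lower with MNA, beside 22.5% and 21.2%, and 27.2% and 26.9%. Ass1, the argininosuccinate synthase, rose with olaparib from 128 to 613 CPM (2.26 ± 0.19, adjusted p = 2.51e-05) and was at 0.12 ± 0.18 with MNA (adjusted p = 0.625), and 43.1% of its words are shared with the pseudogene Gm5424. Haao, an enzyme of tryptophan breakdown towards NAD, rose with both (2.75 ± 0.47, adjusted p = 0.00206, and 2.24 ± 0.47, adjusted p = 0.0142).

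Most markers of macrophages were abundant in every library. The summed level of 14 macrophage markers was 4969 to 6225 CPM in DMSO, 9555 to 11510 CPM with olaparib and 6970 to 8586 CPM in MNA replicates 1, 3 and 4, and none of the 14 was at the floor in every library of a group. Lyz2 made up the largest part, with 1625 to 2532 CPM in DMSO and 5114 to 6559 CPM with olaparib, whereas the Fc receptor gene Fcgr1 stood at 0.116 to 2.30 CPM and the scavenger receptor gene Cd163 at 0.645 to 3.95 CPM over the 12 libraries. Of the 14, 6 rose and 1 fell with olaparib, beside 14.3% higher and 12.8% lower of all tested genes, and 5 rose and 2 fell with MNA, beside 16.3% and 12.3%. In the fit without MNA replicate 2 there were 9 higher and 2 lower with olaparib, beside 22.5% and 21.2%, and 7 higher and 4 lower with MNA, beside 27.2% and 26.9%. Mertk, a receptor for the uptake of dying cells by macrophages, rose with olaparib (log2 1.15 ± 0.14 SE, edgeR adjusted p = 0.00031), as did Lyz2, a lysozyme gene (1.65 ± 0.26, adjusted p = 0.00128), of which 32.8% of the words are shared with other genes. C1qb, a complement component of tissue macrophages, rose with MNA (2.39 ± 0.50, adjusted p = 0.0142), whereas Mrc1, the mannose receptor, fell (-1.49 ± 0.39, adjusted p = 0.021).

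Markers of other cell types moved beside Fscn1 and Ccr7. The summed level of 12 T and NK cell markers was 4.64 to 8.54 CPM in DMSO, 13.9 to 26.3 CPM with olaparib and 32.7 to 49.3 CPM in MNA replicates 1, 3 and 4. Gzma, a granule protease, made up most of the MNA value (23.0, 41.2 and 40.1 CPM). Klrb1c, the NK cell receptor NK1.1, made up most of the olaparib value (10.6 to 16.0 CPM, against 2.20 to 3.35 CPM in DMSO) and was lower with MNA (0.885 to 2.10 CPM, edgeR adjusted p = 0.0342, and 0.0565 with the replicate number as a block). Of the 6 tested T and NK cell markers 3 were called higher and 1 lower with each agent. All tested genes gave 14.3% higher and 12.8% lower for olaparib, and 16.3% and 12.3% for MNA. Cd3e, the T cell receptor chain, was at 0.430 to 0.764 CPM in the 4 MNA libraries, replicate 2 included, and at no more than 2 counts in a DMSO library. Itgae is also a T cell gene. The sum of 8 neutrophil markers reached 53.3 CPM and that of 7 erythroid markers 56.1 CPM in MNA replicate 4, against at most 8.39 and 4.03 CPM in DMSO and 3.81 and 0.337 CPM with olaparib. The sum of 8 B cell markers, 130 to 186 CPM over the 12 libraries, was nearly all Blnk (126 to 184 CPM), a gene that macrophages also express. Of the 4 tested B cell markers 3 rose with MNA, beside 16.3% of all tested genes, namely Cd79a, Cd79b and Ms4a1. Cd79b, a chain of the B cell receptor, stood at 0 to 0.508 CPM in DMSO and at 1.49 to 3.36 CPM in MNA replicates 1, 3 and 4. The sums of 8 basophil and mast cell, 8 stromal and 7 progenitor markers stayed under 10 CPM in every library, with movement inside them. Cd34, a progenitor and endothelial marker, rose from 0.0469 to 0.402 CPM in DMSO to 0.589 to 1.50 CPM with olaparib and at least 1.81 CPM in MNA replicates 1, 3 and 4 (edgeR adjusted p = 0.0276 and 0.0145 with all libraries). Among 3 tested stromal markers Pdgfrb rose and Cdh5 fell with MNA (edgeR adjusted p = 0.0147 and 0.0223), beside 16.3% and 12.3% of all tested genes. The part of these cells in the levels of the members was not tested.

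The genes whose log2 levels were most like those of each member over the 12 libraries, among 10621 genes with a mean count of at least 50, are given as a description. All 12 libraries share the 3 groups and MNA replicate 2, so that any gene that differs between groups scores high. The closest to Itgax was Laptm5, a lysosomal membrane protein of blood cells (Pearson r = 0.986), followed by Ephx1 and Il10ra (0.981 and 0.980). The closest to Batf3 was Eml3 (0.988), followed by Dleu2 and Mcur1 (0.982 and 0.973). Fscn1 was most like Plbd1 (0.976), and Tuba4a reached 0.970. Zbtb46 was most like Ndufaf1 (0.959), Prim2 (0.938) and Car5b (0.926), and Itgae, with its few counts, reached no more than 0.812 with Fmnl3. No gene appeared in the lists of 2 members.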

How the data were processed

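Stranded mRNA libraries of 12 macrophage cultures were sequenced by the authors as single-end reads, aligned with STAR 2.5.2b to GRCm38.p5 and counted per Ensembl gene. The values are the deposited raw counts, with the strand setting not given in the sources used here. Symbols and coordinates came from the GENCODE annotation of the same build, which named 34490 of 35275 identifiers. Groups and replicate numbers came from the labels, and no donor, strain or dose of these libraries is given there.

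Counts were fitted with edgeR 4.0.16 (R 4.3.3, TMM, quasi-likelihood F test) across all 12 libraries by group, after filterByExpr (at least 10 counts, total 15), which left 12849 genes or 13023 without MNA replicate 2. P-values were adjusted by the Benjamini-Hochberg method over all tested genes, with a threshold of 0.05. The fit was also run on simulated counts whose spread was estimated without MNA replicate 2. That run cannot show how the fit performs with the spread of all 12 libraries, and nothing is drawn from it. P-values measure the spread between these libraries. DESeq2 1.42.0, other normalizations, filters, left-out libraries and the replicate number as a block were alternatives. Same-numbered olaparib and DMSO libraries deviated together (r = 0.227, 0.172, 0.225 and 0.408). For MNA and DMSO r was 0.242, 0.114, -0.009 and 0.277. Leaving out MNA replicate 2 gave 0.179, 0.138 and 0.328. No 2 files were identical.

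The members and the 19 gene lists were chosen with earlier results of these data known. Genes named by rule were the 3 of a list with the smallest p in each comparison and the partners and family members of the 8 genes. Further genes were named outside this rule, among them Cacnb3, Cd83, Cd86, Cd200, Itga4, Cox6a2, Clec10a, Clec9a, Siglech, Ly6d, Fcgr1 and Cd163. A few genes that this rule or the likeness ranking gave are not reported here. Shared sequence was the percentage of 31-base words found in other genes. Promoters were RefSeq windows on GRCm38.p6.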

Additional observations from a re-analysis of the deposited data

Results flagged for a closer look

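In groups of 4 libraries, a single library was set apart by its gap to the nearest other, relative to the range of the group. The gap had to exceed Dixon's critical value at 95%. Chance alone gives this in about 1 of 20 groups of normally distributed values, a rate that need not hold at a few counts. Among 35 groups examined for the members, the partner chains and Irf4, Irf8 and Ccr7, 6 exceeded the critical value. Flt3 in DMSO and in olaparib, each with counts in only 1 library, was not among the groups examined. Flt3 stood at 0.270 CPM in MNA replicate 3. Fscn1 stood at 1.67 CPM in olaparib replicate 4. Itgae stood at 0.193 CPM in MNA replicate 3, on 5 counts. Itgb2 stood at 2322 CPM and Itgb7 at 167.4 CPM in MNA replicate 2, and Itgb7 at 190.1 CPM in DMSO replicate 3.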

How the results depend on the processing

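Over the alternatives the log2 difference from DMSO ranged from 0.59 to 0.66 for Itgax, 0.59 to 0.81 for Batf3 and 2.44 to 3.07 for Fscn1 with olaparib, and from 0.23 to 0.40, 0.86 to 1.11 and 3.26 to 4.82 with MNA. Zbtb46 ranged from 0.01 to 0.13 and from -0.43 to -0.18, and Itgae from 0.43 to 1.04 and, changing sign, from -0.13 to 0.48. Leaving out 1 library in turn gave 2152 to 5694 genes for olaparib against DMSO, 463 to 7042 for MNA against DMSO and 1950 to 5503 for olaparib against MNA, where all 12 libraries gave 3475, 3673 and 2800. The highest of each came without MNA replicate 2 and the lowest without olaparib replicate 4 (2152), MNA replicate 3 (463 and 1950). DMSO replicate 3 gave 2293 for olaparib, and for MNA DMSO replicates 2, 3 and 4 gave 1348, 1234 and 1720, and MNA replicates 1 and 4 gave 848 and 503. For the listed genes the ranges were 29 to 75, 14 to 98 and 34 to 100.

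Without MNA replicate 2 and with the replicate number as a block, 6116, 7165 and 5742 genes were called, and 86, 105 and 104 listed genes. The replicate block alone gave 3696, 4168 and 2852. With only the 2 groups compared, the counts were 5720, 0 and 1808, and 72, 0 and 35 listed genes. For that 0 (edgeR), 4728 genes passed at an unadjusted p under 0.05, and DESeq2 on 12 libraries called 4449. The cause was not tested.

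Of 40, 44 and 42 named genes called in the 3 comparisons, 25, 13 and 26 stayed called in all 12 fits without 1 library. For MNA against DMSO the most were lost without MNA replicates 1, 3 and 4 (26, 31 and 31). The block lost 1, 1 and 2 and gained 4, 6 and 3. For olaparib against MNA the log2 difference of Itgb7 ranged from -0.63 (without MNA replicate 4) to 1.41 (without MNA replicate 2, and 1.44 with the block too), that of Jun from -0.18 (without MNA replicate 1) to 0.26 (without MNA replicate 2, and 0.26 with the block too) and that of S100a8 from -0.83 (without MNA replicate 2) to 1.24 (without MNA replicate 4).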
